A study of Mus musculus with 9 samples.

Results

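Lrp2, Cubn, Amn, Dab2, Clcn5 and Fcgrt encode the core of the machinery by which the proximal tubule takes filtered protein back from the urine. These 6 genes of the 21950 mRNA genes measured, with 20 of the 50660 mRNA transcripts, were taken by their official symbols, with earlier results of these data known when the set was named. The data are RNA-seq profiles of the renal cortex from 9 male mice of the C57BL/KsJ background, with 1 library per mouse and 3 libraries in each of the groups named control, dbdb and dbR. All mice carried the db mutation of the leptin receptor gene Lepr: the db/m controls were heterozygous littermates without diabetes, whereas the dbdb and dbR mice were homozygous and had type 2 diabetes. The dbR mice were gavaged with rosiglitazone, which activates PPARγ, at 20 mg/kg/day for 8 weeks from the age of 7 weeks, and the dbdb mice were gavaged with the vehicle over the same time. No gavage is stated for the controls. All tissue was taken at 15 weeks. The libraries hold whole cortex with its glomeruli, tubules, vessels and immune cells, and rosiglitazone was given at a single dose and only to db/db mice.

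Albumin, vitamin-binding proteins and hormones that pass the glomerular filter bind to megalin and cubilin, the large receptors on the brush border of the proximal tubule. Cubilin has no membrane anchor of its own and reaches the surface with its partner amnionless, and the adaptor Dab2 links the receptors to clathrin-coated pits. In the endosome, acidification with the help of the chloride-proton exchanger ClC-5 releases the cargo, the neonatal Fc receptor FcRn can carry albumin and IgG back out, and the rest is degraded in lysosomes. Defects in this uptake cause loss of low-molecular-weight proteins and vitamin D-binding protein in the urine.

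Levels are given in FPKM, fragments scaled to transcript length and to the mapped total of the library, summed over the transcripts of a gene. Fold changes are on the scale of log2(FPKM + 0.1), and a gene was called when its Benjamini-Hochberg adjusted p from limma was under 0.05 over the 14537 genes whose mean FPKM reached 0.1. Relative depth, read from the low values of genes with 1 transcript, lay between 0.914 and 1.14 of that of control replicate 1. Dbdb replicate 3 stood apart in B2m, the light chain shared by MHC class I and FcRn, with an FPKM of 1142 against 266 to 455 in the other libraries, and in Cd74, the invariant chain of MHC class II, with 872 against 57.6 to 188. The label of the tissue held: the 14 proximal tubule markers summed to an FPKM of 8556 to 10665 in each library, led by genes such as Slc34a1, the sodium-phosphate cotransporter, at 1146 to 1641. Of the 14 markers, 4 were called higher and 4 lower in dbdb vs. control and also in dbR vs. control, and none was called in dbR vs. dbdb. Among all genes tested, 26.4% and 24.1% were called against control. Pck1 rose most of the 14 (log2 fold change 1.41 and 1.42 against control) and Ggt1 fell most (-0.91 and -0.73). The mean of the markers is thus not a fixed reference, and ratios to it also carry their changes.

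All 6 genes were expressed at high levels in every library and kept a single order. By mean FPKM over the 9 libraries, Lrp2 stood at 516 and rank 122 of the 14537 genes, Dab2 at 291 and rank 254, Cubn at 172 and rank 467, Fcgrt at 102 and rank 800, Amn at 47.6 and rank 1592, and Clcn5 at 38.0 and rank 2018. No neighbours in this order overlapped, since the lowest value of each gene over the 9 libraries was above the highest value of the next. The closest neighbours were Amn, with a lowest FPKM of 42.0, and Clcn5, with a highest of 40.3.

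**Figure D1:**
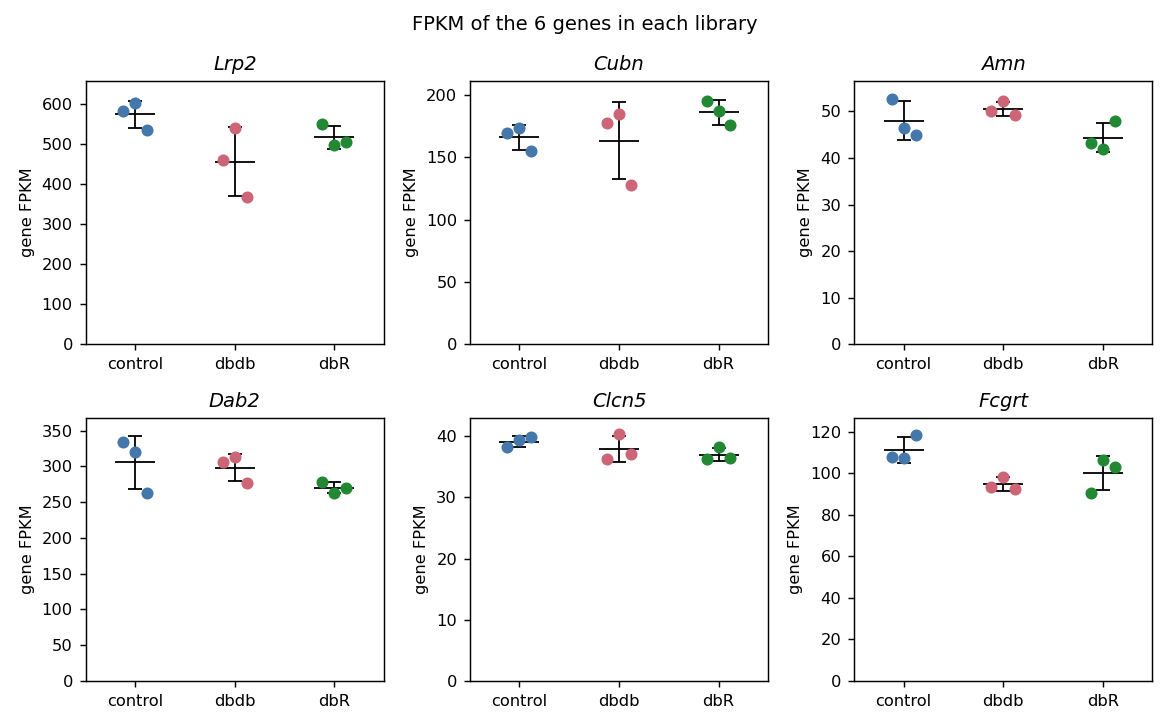
Gene FPKM of the 6 genes in each of the 9 libraries (dots, replicates 1 to 3 from left to right), with the mean (wide line) and SD (bar) of each group on axes that start at 0. Lrp2 and Cubn have their lowest value in dbdb replicate 3 (369 and 128), and Fcgrt lies lower in the 3 dbdb libraries (92.5 to 98.4) than in the 3 control libraries (107 to 118).

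The largest absolute log2 fold change of the 6 genes in any of the 3 comparisons was 0.35, and 1 call was made in 18 tests. The median absolute log2 fold change of all genes was 0.21 in dbdb vs. control, where Lrp2 (0.35) and Fcgrt (0.23) lay above it and the other 4 genes (0.03 to 0.08) below it. In dbR vs. dbdb it was 0.12, with Cubn, Lrp2, Amn and Dab2 (0.14 to 0.21) above it, and in dbR vs. control it was 0.19, with all 6 genes below it. In dbdb vs. control, 1 of the 6 genes was called, Fcgrt, which was lower. Among all 14537 genes, 26.4% were called in this comparison, 13.1% higher and 13.4% lower. In dbR vs. dbdb, the effect of rosiglitazone in db/db mice, none of the 6 was called against 0.743% of all genes, 0.564% higher and 0.179% lower. In dbR vs. control none was called against 24.1% of all genes, 12.3% higher and 11.8% lower. Groups did not overlap for 1 of the 6 genes in dbdb vs. control (42.4% of all genes), 1 in dbR vs. dbdb (22.7%) and 2 in dbR vs. control (41.9%). The comparisons share libraries, so their values are not independent of each other.

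FPKM is relative to the whole library, of which genes of the mitochondrial genome took 26.9% to 32.8%. When these were dropped and every library was brought to an equal sum, the median log2 fold change of all genes moved from -0.00 to 0.15 in dbdb vs. control and to 0.09 in dbR vs. control, and the share of called genes that were higher moved from 49.5% to 78.3% and from 51.1% to 70.5%. In dbR vs. dbdb the median moved to -0.06 and the share from 75.9% to 48.6%, and scaling to the 75th percentile gave a share of 62.3% in dbR vs. control. For that reason ratios of genes within a library, which cancel any scaling of that library, are given beside the fold changes below.

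**Figure D2:**
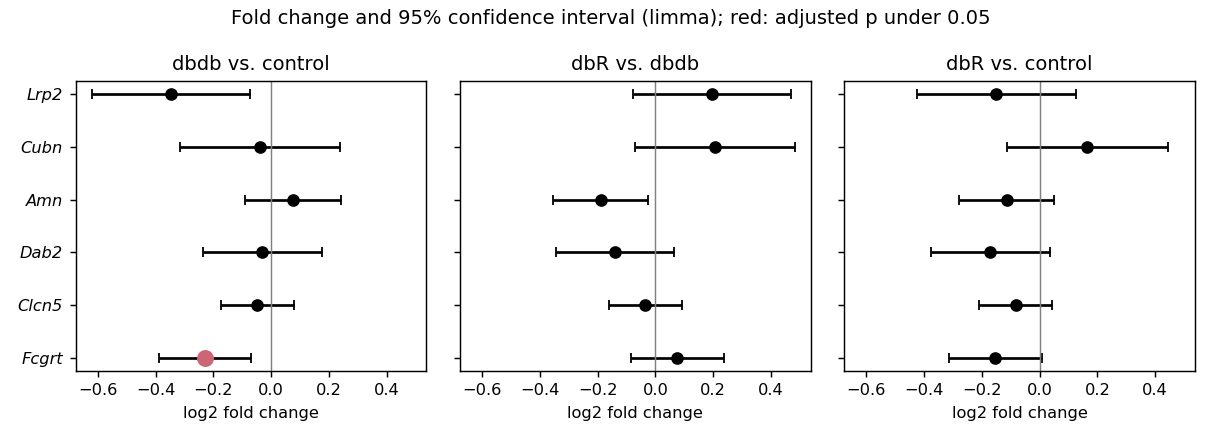
Log2 fold change of each of the 6 genes (dot) with its 95% confidence interval from limma (bar) in the 3 comparisons, with the vertical line at 0 and genes with an adjusted p under 0.05 in red. Fcgrt in dbdb vs. control (-0.23) is the single red point.

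Lrp2 encodes megalin, a giant endocytic receptor that binds albumin, vitamin D-binding protein and many other ligands. The gene lies on the minus strand of chr2:69424340-69586065 (GRCm38), and 97.3% of its FPKM was given to the full-length model Lrp2-201, with 79 exons and 15460 bases. Cubn encodes cubilin, the receptor of intrinsic factor-vitamin B12, transferrin and albumin, from chr2:13276338-13491813 on the minus strand, with 1 model of 67 exons and 11262 bases. Because the level of Lrp2 relative to Cubn is the pattern of this pair described here, the RefSeq promoter windows of both are shown, each 250 bases before to 50 bases after the start site, in GRCm38.p6 and read 5′ to 3′ on the minus strand (Lrp2 chr2:69585980-69586279, Cubn chr2:13491827-13492126). No capitals appear in them, since they hold none of the motifs searched, which are described with Clcn5.
Lrp2: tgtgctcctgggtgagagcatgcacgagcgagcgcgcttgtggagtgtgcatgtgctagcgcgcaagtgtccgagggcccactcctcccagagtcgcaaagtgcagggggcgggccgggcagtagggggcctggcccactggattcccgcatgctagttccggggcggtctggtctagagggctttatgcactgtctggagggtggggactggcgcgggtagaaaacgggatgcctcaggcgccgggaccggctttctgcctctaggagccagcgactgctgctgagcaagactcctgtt
Cubn: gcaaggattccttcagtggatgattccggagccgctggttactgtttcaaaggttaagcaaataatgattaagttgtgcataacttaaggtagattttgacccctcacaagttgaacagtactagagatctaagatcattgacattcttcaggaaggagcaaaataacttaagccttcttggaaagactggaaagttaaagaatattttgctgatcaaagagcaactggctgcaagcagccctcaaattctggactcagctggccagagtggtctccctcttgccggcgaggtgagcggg
The windows differ in base composition, with 65% G and C for Lrp2 and 44.3% for Cubn.

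Lrp2 had an FPKM of 584, 603 and 537 in control, 461, 540 and 369 in dbdb, and 550, 497 and 505 in dbR. The controls were high, the dbdb libraries were spread widely with replicate 2 inside the control range, and the dbR libraries lay near the lower end of the control range. The log2 fold change of Lrp2 was -0.35 (95% CI -0.62 to -0.07) in dbdb vs. control with an adjusted p of 0.0632 (limma), which did not pass, 0.20 (adjusted p 0.449) in dbR vs. dbdb and -0.15 (0.416) in dbR vs. control. Without dbdb replicate 2, the highest of its group, the change in dbdb vs. control was -0.48 and passed (adjusted p 0.0175), and without dbdb replicate 3 it was -0.20 (0.165). It was -0.23 (0.27) with quantile normalization. With mitochondrial genes left out it was -0.19 (0.269, limma), or -0.34 relative to the median of all genes. In dbR vs. dbdb the value without dbdb replicate 3 was 0.05. In bulk cortex, fewer proximal tubule cells and less Lrp2 RNA per cell cannot be told apart. Set against the mean log2 level of the 14 proximal tubule markers in the same library, Lrp2 was lower by -0.39 in dbdb and by -0.25 in dbR than in control, and in both cases the groups did not overlap (exact permutation p 0.1, the smallest that 3 against 3 libraries can give; adjusted p 0.245 over 27 tests of ratios). Without dbdb replicate 3 the difference of dbdb from control was -0.32.

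Cubn had an FPKM of 170, 173 and 155 in control, 178, 185 and 128 in dbdb, and 195, 188 and 176 in dbR. The dbR libraries were all above the controls, and dbdb replicate 3 was the lowest of the 9. The log2 fold change was -0.04 (95% CI -0.32 to 0.24, adjusted p 0.845, limma) in dbdb vs. control, 0.21 (0.43) in dbR vs. dbdb and 0.17 (0.371) in dbR vs. control. None passed the test, and without dbdb replicate 3 the dbdb group stood at 0.13 over control and dbR at 0.04 over dbdb.

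The ratio of Lrp2 to Cubn separated the db/db mice from the controls more narrowly than either gene. In FPKM it was 3.44, 3.48 and 3.46 in control, 2.59, 2.92 and 2.89 in dbdb, and 2.82, 2.65 and 2.88 in dbR. All 6 db/db libraries, treated or not, lay below the 3 controls, whose values were nearly equal. On the log2 scale the difference was -0.31 (SE 0.05) in dbdb vs. control and -0.32 (SE 0.04) in dbR vs. control, each with an exact permutation p of 0.1 (adjusted p 0.245), and -0.01 (SE 0.07, p 0.8) in dbR vs. dbdb. The range over fits that left out each library in turn was -0.34 to -0.25 in dbdb vs. control, dbdb replicate 3 included.

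Dbdb replicate 3 was low in both receptors together. Lrp2 lay 0.29 and Cubn 0.34 below the mean log2 level of the dbdb group there (deviations of -0.29 and -0.34), while dbdb replicate 2 lay 0.26 and 0.20 above it. Over all genes whose main transcript is at least 10 kb long, 204 in number, the median deviation was -0.06 in dbdb replicate 3 and 0.07 in dbdb replicate 2. That library was also the one with the high B2m and Cd74, and the part of RNA integrity or of immune cells in its receptor levels was not tested. Over the 9 libraries, which fall into 3 groups, Pearson's r of log2 Lrp2 with log2 Cubn was 0.66 and Spearman's rho 0.12, and r was -0.18 without dbdb replicate 3. Of their deviations from the group means r was 0.93, dbdb replicate 3 included.

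Amn encodes amnionless, the membrane anchor that brings cubilin to the brush border, from chr12:111271095-111276426 on the plus strand, with 1 model of 12 exons. Its FPKM was 52.7, 46.3 and 45.0 in control, 50.1, 52.2 and 49.2 in dbdb, and 43.2, 42.0 and 47.8 in dbR. The dbR libraries were all below the dbdb libraries, while the controls overlapped with both. The log2 fold change was 0.08 (adjusted p 0.492, limma) in dbdb vs. control, -0.19 (95% CI -0.35 to -0.02, adjusted p 0.227) in dbR vs. dbdb and -0.11 (0.299) in dbR vs. control, so none passed. The ratio of Cubn to Amn was 3.22, 3.74 and 3.44 in control, 3.55, 3.55 and 2.60 in dbdb, and 4.52, 4.47 and 3.67 in dbR. It was higher in every dbR library than in any dbdb library, by 0.40 (SE 0.18) on the log2 scale, with an exact permutation p of 0.1 (adjusted p 0.245), whereas dbR and control overlapped (0.28, p 0.2). Without dbdb replicate 3, the lowest in this ratio, the difference of dbR from dbdb was 0.25. Relative to the proximal tubule markers Amn was lower in dbR than in dbdb (-0.24) and than in control (-0.21), with no overlap in either case and an exact p of 0.1 for each. In FPKM Amn overlapped between dbR and control, and the part of the markers' own changes in these ratios was not tested.

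**Figure D3:**
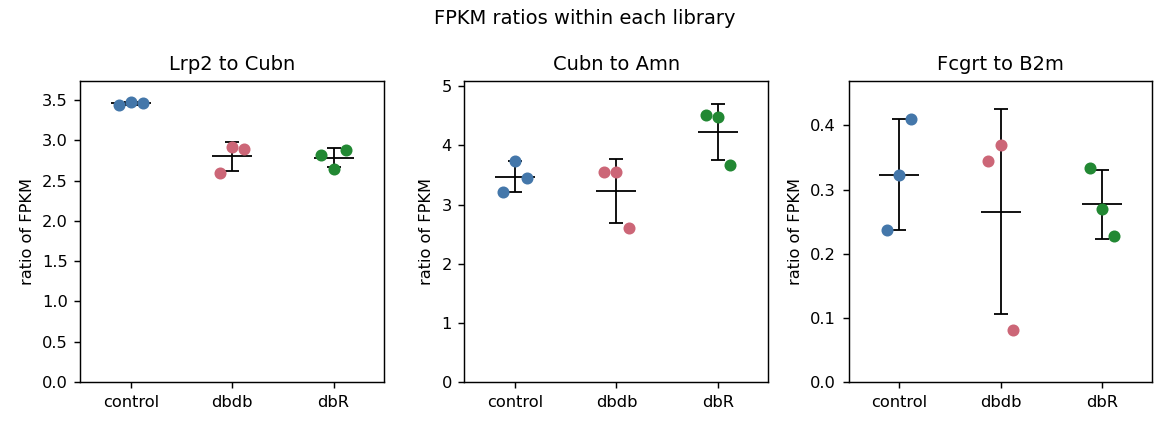
Ratios of FPKM within each library (dots, replicates 1 to 3 from left to right), with the mean (wide line) and SD (bar) of each group. The Lrp2 to Cubn ratio is 3.44 to 3.48 in the controls and 2.59 to 2.92 in the 6 db/db libraries, the Cubn to Amn ratio is highest in dbR, and Fcgrt to B2m falls to 0.081 in dbdb replicate 3.

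Dab2, the adaptor that binds the tails of the receptors and recruits clathrin, lies on chr15:6299788-6440712 on the plus strand. Its FPKM was 334, 320 and 263 in control, 306, 313 and 276 in dbdb, and 278, 263 and 269 in dbR. The controls were spread over the whole range and overlapped with both other groups. The log2 fold change was -0.03 (adjusted p 0.841, limma) in dbdb vs. control, -0.14 (0.468) in dbR vs. dbdb and -0.17 (0.211) in dbR vs. control. Without control replicate 3, the lowest control, the value in dbR vs. control was -0.27 and passed (adjusted p 0.0349). Relative to the proximal tubule markers, Dab2 was lower in each dbR library than in any dbdb library (-0.19, SE 0.05, exact permutation p 0.1).

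Dab2 was divided by Cufflinks over 11 models, and in each library the upstream start site held more of its FPKM than the downstream one. The models that begin at the upstream start held 47.4% to 50.2% of Dab2 FPKM, those at the downstream start held 38.4% to 45.3%, and the rest lay in models that begin elsewhere. The groups overlapped in both shares. The models with a coding length of 1581 or 1644 bases, which lack the central stretch of the longer form, held most of the FPKM: 63.5%, 61.9% and 64.6% in control, 67.4%, 66.2% and 67.9% in dbdb, and 65.4%, 63.4% and 63.6% in dbR. Each dbdb library was above all 6 others, by 3.87 percentage points over control and 3.06 over dbR (-3.06 in dbR vs. dbdb), each with an exact permutation p of 0.1. The models of the long form, with 2235 or 2298 coding bases, held 1.74% to 2.81% in control, 2.64% to 3.04% in dbdb and 2.88% to 3.43% in dbR. The model Dab2-208, which covers only the front part of the coding sequence, was called higher in dbdb vs. control, at an FPKM of 5.17, 5.05 and 5.81 against 7.78, 7.70 and 8.47 (log2 fold change 0.57, adjusted p 0.0382 over 29362 transcripts, limma). The model with the highest mean, Dab2-203, had an FPKM of 96.0 ± 7.73 (SD, n = 3) in control, 93.9 ± 7.08 in dbdb and 78.5 ± 4.93 in dbR, lower in dbR than in either other group without overlap and without a call (-0.29, adjusted p 0.0647, against control and -0.26, 0.316, against dbdb, limma). Dab2-209, a partial model, lay lower in dbR (53.1 ± 2.81 (SD, n = 3)) than in control (68.8 ± 8.27) without overlap and without a call (log2 fold change -0.37, adjusted p 0.0569, limma). These shares were compared after the values were seen, and they rest on how Cufflinks divided shared exons.

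Clcn5 encodes ClC-5, the endosomal chloride-proton exchanger whose loss causes Dent disease, from chrX:7153810-7319358 on the minus strand. Its FPKM was 38.2, 39.3 and 39.9 in control, 36.3, 40.3 and 37.0 in dbdb, and 36.2, 38.2 and 36.4 in dbR. It was the steadiest of the 6 genes, with all 9 values between 36.2 and 40.3 and overlap in every comparison. The log2 fold change was -0.05 (95% CI -0.17 to 0.08, adjusted p 0.578, limma) in dbdb vs. control, -0.04 (-0.16 to 0.09, 0.797) in dbR vs. dbdb and -0.08 (-0.21 to 0.04, 0.329) in dbR vs. control. Relative to the proximal tubule markers it was lower in dbR than in control without overlap (-0.18, exact permutation p 0.1), while its FPKM overlapped. The part of the markers' own changes, given above, in this value was not tested.

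Within this total, the start sites of Clcn5 were used unequally. The model Clcn5-201 begins at position 7188714 of chrX, within the gene, and held 83.7% of Clcn5 FPKM over the 9 libraries. Clcn5-202 begins near the upstream end of the gene, at 7319233, adds coding sequence to the front (2448 against 2238 coding bases) and held 5.45%. Clcn5-203 begins at 7319358, is a short model of 1073 bases and held 10.9%. Because the data bear on these starts, their RefSeq windows are shown 5′ to 3′ on the minus strand in GRCm38.p6, the downstream start in chrX:7188665-7188964 and the upstream start in chrX:7319309-7319608. Capitals mark the motif TATAAA.
Clcn5 downstream start: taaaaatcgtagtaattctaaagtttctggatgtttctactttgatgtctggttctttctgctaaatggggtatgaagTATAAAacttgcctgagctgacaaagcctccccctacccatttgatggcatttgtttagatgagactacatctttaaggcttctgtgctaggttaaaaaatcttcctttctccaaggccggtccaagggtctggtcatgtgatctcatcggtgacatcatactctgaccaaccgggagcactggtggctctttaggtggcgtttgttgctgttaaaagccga
Clcn5 upstream start: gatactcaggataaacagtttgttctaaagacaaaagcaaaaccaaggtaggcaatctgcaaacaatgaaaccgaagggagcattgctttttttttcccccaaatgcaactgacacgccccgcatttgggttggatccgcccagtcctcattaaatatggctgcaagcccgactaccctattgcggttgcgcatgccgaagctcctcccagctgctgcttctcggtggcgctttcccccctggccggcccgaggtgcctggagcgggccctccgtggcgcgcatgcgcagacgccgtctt
The downstream window has a G and C content of 43.3% and the upstream window of 56%. The motifs searched on both strands were TATAAA (the core of the TATA box), AGGTCA (the core site of many nuclear receptors) and GTTAAT (the core site of HNF1). TATAAA stood in 1 of the 8 RefSeq windows of the 6 genes and in 13.6% of the 32851 windows of the table, GTTAAT in 1 of 8, that of the downstream start of Dab2, and in 7.10% of all, and AGGTCA in 0 of 8 and in 16.3% of all. A match is a description of the letters and not a binding site.

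The share of Clcn5 FPKM from the upstream models was 13.0%, 14.7% and 12.9% in control, 18.6%, 17.7% and 17.4% in dbdb, and 17.0%, 19.5% and 16.4% in dbR. All 6 db/db libraries were above all 3 controls, and dbdb and dbR overlapped. The share was 4.35 percentage points higher in dbdb than in control and 4.08 higher in dbR, each with an exact permutation p of 0.1, and differed by -0.26 points (p 0.8) in dbR vs. dbdb. Leaving out each library in turn gave 3.99 to 4.91 points in dbdb vs. control. This comparison was chosen after the values were seen.

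The share rests on all 3 models. The downstream Clcn5-201 had an FPKM of 33.2, 33.6 and 34.7 in control, 29.6, 33.2 and 30.6 in dbdb, and 30.1, 30.8 and 30.4 in dbR. It lay lower than in control in both db/db groups, dbdb replicate 2 only by a margin that rounding hides, without overlap and without a call (log2 fold change -0.12, adjusted p 0.208, and -0.15, 0.131, limma). Clcn5-202 had an FPKM of 1.34, 1.30 and 1.53 in control, 2.20, 2.24 and 1.73 in dbdb, and 2.58, 3.33 and 2.38 in dbR. Its groups followed each other without overlap, and it was called higher in dbR vs. control (log2 fold change 0.94, SE 0.17, adjusted p 0.0145, limma over 29362 transcripts) but not in dbdb vs. control (0.53, adjusted p 0.102) or dbR vs. dbdb (0.41, 0.468). The short Clcn5-203 had 3.64, 4.47 and 3.62 in control, 4.55, 4.91 and 4.70 in dbdb, and 3.57, 4.10 and 3.60 in dbR, with no call (-0.32, adjusted p 0.363, limma, in dbR vs. dbdb). It was highest in the 3 dbdb libraries, and control and dbR overlapped. With the short model left out, the upstream share was 3.72% to 4.21% in control, 5.35% to 6.93% in dbdb and 7.25% to 9.77% in dbR, with dbR 2.11 percentage points above dbdb (exact permutation p 0.1).

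**Figure D4:**
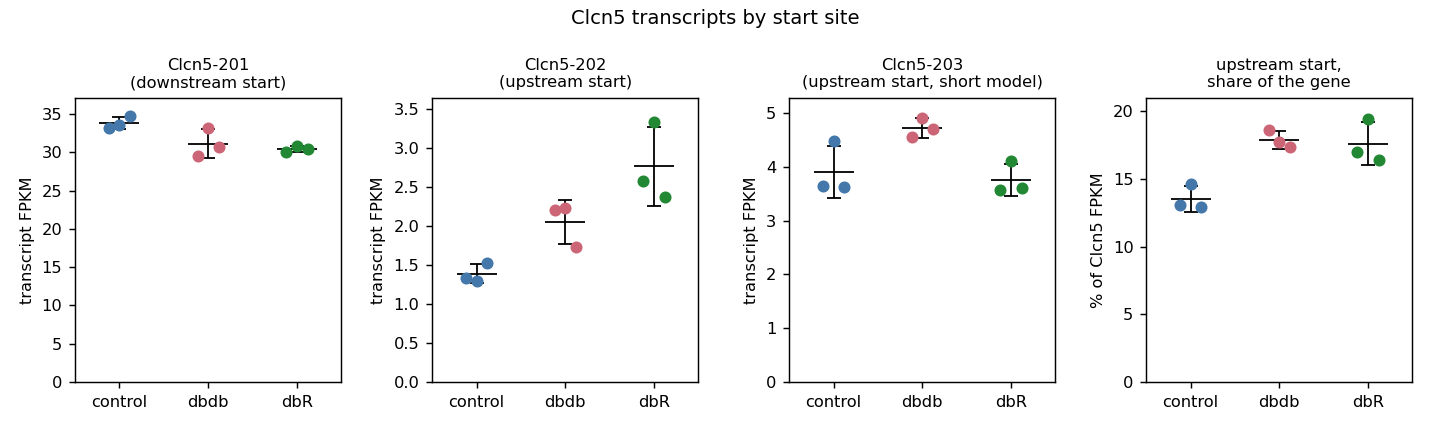
Transcript FPKM of the 3 Clcn5 models and, at the right, the percent of Clcn5 FPKM from the upstream models, in each library (dots, replicates 1 to 3 from left to right) with the mean (wide line) and SD (bar) of each group. The upstream share is 12.9% to 14.7% in control and 16.4% to 19.5% in the 6 db/db libraries, and Clcn5-202 rises from 1.30 to 1.53 in control to 2.38 to 3.33 in dbR.

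Fcgrt encodes the heavy chain of FcRn, which protects albumin and IgG from degradation, from chr7:45092990-45103851 on the minus strand, with 1 model of 7 exons. Its FPKM was 108, 107 and 118 in control, 93.3, 98.4 and 92.5 in dbdb, and 90.7, 107 and 103 in dbR. Every dbdb and dbR library was below every control, dbR replicate 2 only narrowly, and dbdb and dbR overlapped. Fcgrt fell by 0.23 (log2 fold change -0.23, 95% CI -0.39 to -0.07) in dbdb vs. control with an adjusted p of 0.0399 (limma), and the log2 fold change was 0.08 (adjusted p 0.625) in dbR vs. dbdb and -0.15 (0.152) in dbR vs. control. The call was lost in each of the 6 fits without 1 library of the comparison (adjusted p 0.0583 to 0.128) and with quantile normalization (-0.13, 0.0955). With mitochondrial genes left out the log2 fold change was -0.07 (0.333), or -0.22 relative to the median of all genes, against -0.23 relative to that median in the values as deposited. Relative to the proximal tubule markers Fcgrt was lower by -0.28 in dbdb and by -0.25 in dbR than in control, without overlap (exact permutation p 0.1 for each, adjusted p 0.245).

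FcRn is also made by endothelial cells and macrophages, and markers of these cells moved in the same comparison. Among all genes 26.4% were called in dbdb vs. control, 0.743% in dbR vs. dbdb and 24.1% in dbR vs. control. Of the 6 endothelial markers, 4 were called lower and 0 higher in dbdb vs. control, and their summed FPKM was 137 to 152 in control, 114 to 127 in dbdb and 151 to 169 in dbR, with 2 called higher in dbR vs. dbdb and 2 higher in dbR vs. control. Of the 9 macrophage markers, 5 were called lower and 0 higher in dbdb vs. control and 3 lower in dbR vs. control, with a summed FPKM of 176 to 270 in control, 89.2 to 926 in dbdb and 119 to 207 in dbR, the top value being that of dbdb replicate 3 with its high Cd74. None of these 15 markers was at 0 in any library, and their part in the level of Fcgrt or of Dab2, which macrophages also make, was not tested. B2m, the light chain of FcRn, had 455, 332 and 288 in control, 270, 266 and 1142 in dbdb, and 271, 396 and 454 in dbR, with a log2 fold change of 0.31 in dbdb vs. control (adjusted p 0.679, limma). The dbdb libraries other than replicate 3 lay below all 3 controls. The ratio of Fcgrt to B2m was 0.237 to 0.410 in control, 0.081 to 0.370 in dbdb and 0.227 to 0.334 in dbR, and all groups overlapped.

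At the transcript level all 20 models of the 6 genes were tested. In dbdb vs. control 1 was called, Dab2-208, against 9.57% of the 29362 transcripts, and 5 did not overlap (30.1%). In dbR vs. dbdb 0 were called against 0.017%, and 4 did not overlap (16.5%). In dbR vs. control 1 was called, Clcn5-202, against 8.5%, and 9 did not overlap (29.4%). Among the latter, the short Lrp2 models Lrp2-202 (an FPKM of 11.7 ± 2.63 (SD, n = 3) in control and 7.25 ± 1.58 in dbR) and Lrp2-203 (5.97 ± 1.87 and 3.39 ± 0.688) were lower in dbR without passing the test (adjusted p 0.135 and 0.407, limma).

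Among the genes that fold, sort and bind the receptors, the chaperone of megalin fell in both db/db groups. Lrpap1 encodes RAP, the chaperone that keeps megalin from binding ligands while it is made. Its FPKM was 253, 249 and 298 in control, 183, 185 and 169 in dbdb, and 164, 192 and 206 in dbR, so that all 6 db/db libraries were below the controls. Lrpap1 fell in dbdb vs. control (log2 fold change -0.57, SE 0.10, adjusted p 0.00232, limma) and in dbR vs. control (-0.51, 0.00447), and its value in dbR vs. dbdb was 0.06 (0.789). It kept its direction and its call under every alternative run, with mitochondrial genes left out (-0.41 and -0.42) and without each library included. Of the 11 tested chaperones and adaptors, 3 were called higher and 1 lower in dbdb vs. control, where 26.4% of all genes were called. In dbR vs. control 2 were called higher and 1 lower, against 24.1% of all genes, and 0 were called in dbR vs. dbdb. The median log2 fold changes against control were 0.03 in dbdb and -0.05 in dbR. Inpp5b, an inositol phosphatase close to the Lowe syndrome gene, rose from 30.6 ± 1.81 (SD, n = 3) to 43.4 ± 0.215 in dbdb (log2 fold change 0.50, adjusted p 0.000359) and stood at 35.9 ± 1.90 in dbR (0.23 over control, 0.0225). Appl2, an endosomal adaptor that binds Rab5, rose in dbdb vs. control (0.32, adjusted p 0.0242).

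Genes of the clathrin coat and of the endosomes were called in dbdb vs. control about as often as genes in general, of which 26.4% were called there and 24.1% in dbR vs. control. Of 14 clathrin coat and scission genes, 1 was called higher and 2 lower in dbdb vs. control, and 1 and 1 in dbR vs. control, with medians of -0.02 and -0.04. Hip1r, which links clathrin to actin, rose in both (log2 fold change 0.50 and 0.38, adjusted p 0.00325 and 0.0128), while Ap2m1, a subunit of the AP-2 adaptor (-0.20, 0.0417), and Eps15 (-0.17, 0.0484) fell in dbdb vs. control and Fcho2 fell in dbR vs. control (-0.17, 0.048). The calls of Ap2m1, Eps15 and Fcho2 were each lost without most single libraries and with quantile normalization. With none called in dbR vs. dbdb, the most abundant of them, the light chain Clta, had 0.06 there (0.717). Of 20 genes of early and recycling endosomes, 1 was called higher and 4 lower in dbdb vs. control, with a median of -0.11. In dbR vs. control 0 were called higher and 7 lower, with a median of -0.10. That is above the 24.1% of all genes called there (11.8% lower), and 4 of the 20 were called without mitochondrial genes. Rab38, a Rab GTPase whose loss in rats reduces protein uptake, fell by 1.03 in dbdb (log2 fold change -1.03, adjusted p 0.000309) and by 0.85 in dbR (-0.85, 0.00102). Rab11fip3 (-0.55 and -0.63) and the sorting nexin Snx27 (-0.34 and -0.39), both of the recycling route, fell in both db/db groups as well (adjusted p 0.000291 to 0.00549). The late endosomal Rab7 had 0.03 (0.868) in dbR vs. dbdb. Under the scaling without mitochondrial genes the calls in dbdb vs. control were 5 higher and 0 lower for the clathrin genes and 5 higher and 3 lower for the endosomal genes, so the direction of these lists depends on the scaling.

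Of 24 genes of the vacuolar proton pump and of endosomal ion exchange, 2 were called higher and 4 lower in dbdb vs. control, 2 higher and 8 lower in dbR vs. control and 0 in dbR vs. dbdb, with medians of -0.04 and -0.11 against control, beside the 26.4% and 24.1% of all genes called in these comparisons. Slc9a8, the sodium-proton exchanger NHE8, had the largest change, from 26.4 ± 4.54 (SD, n = 3) in control to 10.1 ± 0.395 in dbdb and 9.15 ± 0.797 in dbR (log2 fold change -1.37 and -1.51, adjusted p 5.84e-05 and 4.08e-05, limma). The pump subunits that rose were Atp6v1b1 (0.78 and 0.92) and Atp6v0a4 (0.45 and 0.36), which are abundant in intercalated cells. Of the 8 thick limb and distal markers 5 were also called higher in dbdb vs. control, among them the intercalated cell genes Slc4a1 (1.22) and Atp6v1g3 (0.47), and 6 in dbR vs. control. Atp6v1g3 was called higher in dbR vs. dbdb too (0.52, adjusted p 0.0251, limma), a call lost without mitochondrial genes. The part of the distal markers in these subunits was not tested. Ostm1, the partner of the lysosomal exchanger ClC-7, fell in dbR vs. control (-0.56, 0.00488), and the ubiquitous subunit Atp6v0c had -0.11 (0.44) in dbR vs. dbdb. Of 21 lysosome genes 3 were called higher and 3 lower in dbdb vs. control, and 1 and 3 in dbR vs. control, with medians of -0.03 and -0.08, near the shares of 26.4% and 24.1% called among all genes. Hexa, a lysosomal enzyme that breaks down gangliosides, rose in dbdb vs. control (0.51, 0.00143). Ctns, the cystine exporter, was lower in dbR vs. control (-0.26, 0.0449), a call lost without a filter, with each other scaling and without most single libraries, and Cd63, a lysosomal membrane protein and the most abundant of the list, had 0.05 (0.805) in dbR vs. dbdb.

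Ligands and other uptake receptors held some of the largest fold changes among the named genes. Of 14 ligands and partner chains that have a transcript in the cortex, 6 were called higher and 2 lower in dbdb vs. control and 6 and 1 in dbR vs. control, with medians of 0.59 and 0.57. Among all genes 26.4% and 24.1% were called in these comparisons. Gc, vitamin D-binding protein and a ligand of megalin, rose from an FPKM of 5.75 ± 1.20 (SD, n = 3) in control to 33.5 ± 4.48 in dbdb and 44.9 ± 5.02 in dbR (log2 fold change 2.54 and 2.96, adjusted p 1.1e-05 and 5.65e-06). Alb, albumin, named here after its values were seen and also on the list of blood and liver markers, rose from 4.96 ± 0.191 to 9.43 ± 2.35 and 15.3 ± 1.88 (0.88 and 1.60, adjusted p 0.00393 and 0.000175, limma). Sepp1, selenoprotein P, fell from 1994 ± 458 to 699 ± 34.9 and 680 ± 70.3 (-1.49 and -1.53). Lcn2 (1.35 and 1.76) and Ttr, the thyroxine carrier (1.52 and 1.66), rose at levels of about 1 FPKM and below. At that level the pseudocount sets much of the fold change: with a pseudocount of 1 it was 0.57 and 0.80 for Lcn2 and 0.47 and 0.52 for Ttr, and the call of Ttr in dbdb vs. control was lost with that pseudocount, with quantile normalization and without most single libraries. Of 14 other receptors 3 were called higher and 5 lower in dbdb vs. control, and 4 and 2 in dbR vs. control, with medians of -0.07 and 0.07. Cd36, a scavenger receptor and fatty acid carrier, fell (-2.76 and -2.72), Sort1 rose (0.67 and 0.65), Lrp1, another giant endocytic receptor, rose (0.52 and 1.09), and Havcr1, the injury marker KIM-1, fell at under 1 FPKM (-0.91 and -0.89). It was the only one of 8 injury markers called lower, while Spp1 (1.52 and 1.19), Clu (0.99 and 1.04), Krt18 (0.56 and 0.72) and Lcn2 were called higher in both comparisons. With a pseudocount of 1 the values of Havcr1 were -0.30 and -0.30, and its calls were lost without mitochondrial genes and without most single libraries, that in dbR vs. control also with a pseudocount of 0.01.

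Vitamin D handling depends on megalin for its substrate. All 6 of its tested genes were called higher in both db/db groups, against 13.1% and 12.3% of all genes. Their medians were 1.76 and 1.42 over control. The narrowest call was that of Cyp27a1, named after its values were seen, in dbR vs. control (0.25, adjusted p 0.0444, limma), which was lost without a filter, with only the 6 libraries and without most single libraries. Cyp27b1, the enzyme that makes the active hormone, had an FPKM of 2.60 ± 0.897 (SD, n = 3) in control, 19.6 ± 8.51 in dbdb and 16.3 ± 1.35 in dbR. Its log2 fold change was 2.84 in dbdb vs. control (adjusted p 0.000211, limma) and 2.67 in dbR vs. control (0.000336). Cyp24a1, which inactivates the hormone, rose as well (2.02 in dbdb vs. control, adjusted p 0.0185), but dbdb replicate 1, at 15.7, lay close to the highest control at 14.6, and its calls were lost in the robust fit and without some single libraries. The calcium-binding proteins of the distal tubule Calb1 (2.12 and 1.53) and S100g (0.83 and 1.19) were higher too, and none of the 6 was called in dbR vs. dbdb. As given above, distal markers were higher in the same comparisons. Of 13 regulators of proximal tubule genes, 5 were called higher and 2 lower in dbdb vs. control and 4 and 2 in dbR vs. control, with medians of 0.17 and 0.02. Of all genes, 26.4% and 24.1% were called in these comparisons. The nuclear receptor Ppara (0.78 and 0.47) and the insulin-regulated factor Foxo1 (0.76 and 0.38) rose, Hnf4g fell (-0.95 and -0.78), and Hnf4a, a main factor of proximal tubule identity, had -0.11 (0.307) in dbdb vs. control and -0.09 (0.535) under rosiglitazone vs. dbdb.

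**Figure D5:**
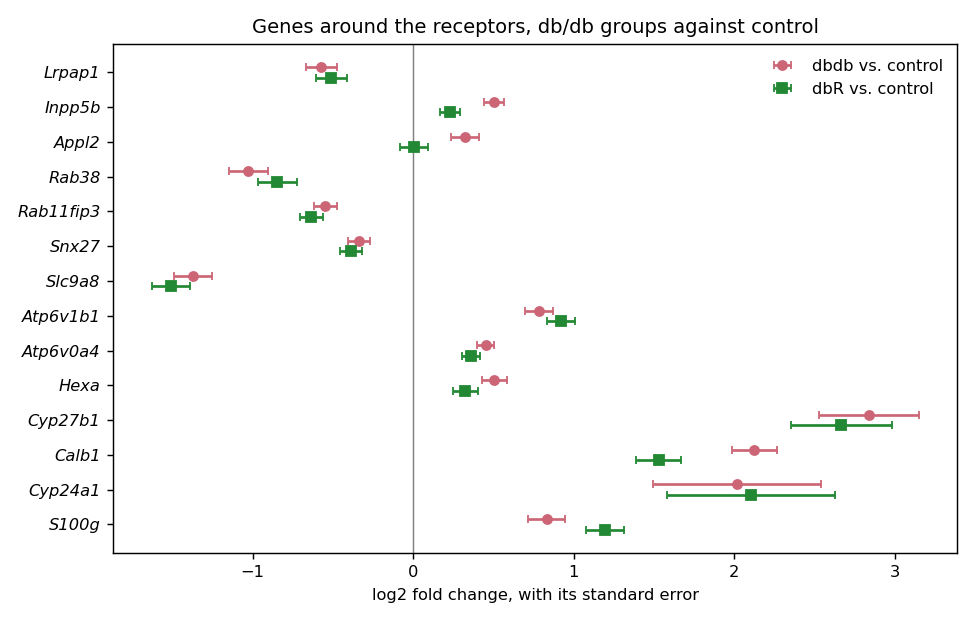
Log2 fold change of 14 named genes of the uptake route in dbdb vs. control (circles) and dbR vs. control (squares), with the standard error from limma as bars. Lrpap1 (-0.57 and -0.51), Rab38, Rab11fip3, Snx27 and Slc9a8 lie below 0 and the vitamin D and calcium genes lie above it in both comparisons.

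The genes whose log2 level followed each of the 6 most closely over the 9 libraries, among 11615 genes whose mean FPKM reached 1, had Pearson's r of 0.91 or more. For Lrp2 they were Atxn7l1 (0.97), Bnc2 (0.96) and Ldlrad3 (0.96). For Cubn they were Tcp11l1 (0.95), Osr2 (0.95) and Abat (0.91), and for Amn they were Lonp1 (0.97), Tox4 (0.94) and Pex6 (0.94). For Dab2 they were Mtss1 (0.97), Xndc1 (0.94) and Kif16b (0.93), for Clcn5 Pafah1b2 (0.95), Rc3h1 (0.95) and Wdr12 (0.95), and for Fcgrt Psmd6 (0.995), Vps4a (0.98) and Taldo1 (0.98). None of the 6 was among the closest of another, and among their own pairs the highest r was 0.70, for Amn and Dab2, while the r of 0.93 given above for Lrp2 and Cubn is of deviations from group means. These are descriptions over libraries that fall into 3 groups.

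Long noncoding RNAs near the 6 genes were few and low. Within 100 kb, Gm13270 overlaps the end of Cubn on the opposite strand, at an FPKM of 0.892 ± 0.368 (SD, n = 3) in control, 0.975 ± 0.237 in dbdb and 1.38 ± 0.316 in dbR, with overlap between the groups. 2010204K13Rik lies 92745 bases from Clcn5, with an FPKM of 2.77 to 6.76 for its more abundant transcript, and Gm15545 lies 98393 bases from Fcgrt, with 0.422 to 1.01. None of the 461 lncRNA transcripts assembled by the authors lay within that distance.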

How the data were processed

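RNA of the renal cortex of 9 mice was depleted of ribosomal RNA and read as strand-specific libraries, 1 per mouse. The authors aligned the reads and estimated transcript levels with TopHat2 2.0.9 and Cufflinks 2.1.1 on GRCm38.p2, per the submitters' processing notes, and deposited 1 FPKM value per transcript and library. FPKM holds no read counts, so no count test was used and counting error is unknown, and where a gene has several transcripts the value of each rests on how Cufflinks divided shared reads. The relative depth of the libraries was read from the most frequent ratio of low FPKM values of genes with 1 transcript.

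Groups were taken from the labels. FPKM was summed per gene, and log2(FPKM + 0.1) of the 14537 genes with a mean of at least 0.1 was fitted with limma 3.58.1 (R 4.3.3, trend) in 1 model of the 9 libraries. Transcripts were fitted likewise. All limma p-values are two-sided and adjusted over all features tested. Ratios and shares were compared with two-sided exact permutation tests, whose smallest p with 3 against 3 libraries is 0.1. The fit was tested on simulated data.

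The 6 genes and the 9 pathway and 7 marker lists were chosen with earlier results of these data known. Named were the 6 genes, Lrpap1, B2m, Slc34a1 and Slc5a2, for each pathway list and comparison up to 3 called genes with the largest fold change or else the most abundant gene, and for each of the 6 the 3 genes with the highest r. Some genes that this rule names are not reported here. Slc5a2, the sodium-glucose cotransporter SGLT2, had a log2 fold change of 0.42 in dbdb vs. control (adjusted p 0.0231). Of the other marker lists, in dbdb vs. control and dbR vs. control, 2 of 5 podocyte markers were called higher each time, 4 of 8 injury markers were called higher and 1 lower each time, and 1 of 7 blood and liver markers, Alb, was called higher each time. Among all genes 26.4% and 24.1% were called in these comparisons. Alternatives were other pseudocounts, filters, scalings and models, the replicate number as a block, transcripts in place of genes and leaving out each library. The start and coding form shares, the grouping by transcript length and the fit with lncRNA genes were chosen after seeing the data. Coordinates are those of GENCODE (GRCm38) and promoter windows those of RefSeq (GRCm38.p6), which held windows for all 6 genes. Python 3.11.15 with numpy 2.4.6, pandas 2.3.3, scipy 1.17.1 and matplotlib 3.10.9 was used for the rest.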

Additional observations from a re-analysis of the deposited data

How the results depend on the processing

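Of 324 values of the 6 genes' fold changes under alternatives, 300 kept their direction and side of the threshold, and the cause of the others was not tested. Reversed were, in dbdb vs. control, Cubn (0.068), Dab2 (0.082) and Clcn5 (0.030) with quantile normalization and Cubn (0.12), Dab2 (0.13) and Clcn5 (0.11) without mitochondrial genes, and in dbR vs. control Clcn5 (0.012) without mitochondrial genes. Without each library in turn, the log2 fold change in dbdb vs. control ranged from -0.48 to -0.20 for Lrp2, -0.14 to 0.13 for Cubn, -0.13 to 0.038 for Dab2 and -0.26 to -0.18 for Fcgrt, in dbR vs. dbdb from -0.065 to 0.011 for Clcn5, and in dbR vs. control from -0.27 to -0.10 for Dab2. Fcgrt in dbdb vs. control was also not called with quantile normalization (-0.13), without mitochondrial genes (-0.071), as its transcript (-0.23, adjusted p 0.0845) and with a replicate block (-0.23, adjusted p 0.0516).

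The count of genes called in dbR vs. dbdb, 108, was 31 with no filter, 166 at a mean FPKM of at least 1, 203 with 75th percentile scaling, 234 with quantile normalization, 22 with only the 6 libraries, 166 with a robust fit, 23 with a replicate block, 5 over transcripts, 66 with lncRNA genes in the same fit and 2 to 141 without each library (70, 2 and 10 without dbR replicates 1, 2 and 3, and 36 and 31 without dbdb replicates 1 and 2). Without mitochondrial genes the number called in a list was, in dbdb vs. control, 5 for clathrin, 8 for endosomes and 4 for podocyte markers, in dbR vs. control 4 for endosomes, and in dbR vs. dbdb 1 for chaperones and adaptors, 1 for regulators, 1 for proximal tubule markers, 1 for endothelial markers and 0 for other receptors and for distal markers.

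Of 189 values of ratios 177 kept their direction. All but 1 of those that reversed did so without 1 library, with ranges of -0.19 to 0.035 for Cubn to Amn, -0.92 to 0.18 for Fcgrt to B2m, -0.14 to 0.0096 for Cubn and -0.025 to 0.084 for Amn to proximal tubule markers in dbdb vs. control. In dbR vs. dbdb the ranges were -0.063 to 0.026 for Lrp2 to Cubn (0.0050 with the most abundant transcript), -0.39 to 0.71 for Fcgrt to B2m and -0.016 to 0.080 for Fcgrt to proximal tubule markers. The upstream Clcn5 share in dbR vs. dbdb ranged from -1.18 to 0.34 points, and was 2.11 without the short model. Of 1779 values of called list genes 249 lost their call and none reversed. Cyp24a1 lost its call with the robust fit.

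Samples with the same replicate number did not deviate together (r -0.17 to 0.06) and nothing in the labels ties them, so the numbers were not taken to pair the mice. FPKM without counts limits what can be said of the precision of low transcripts such as Clcn5-202.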
